A study of Chlorocebus aethiops with 12 samples.

Results

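The genes described here are 33 inflammatory mediators that glucocorticoids are known to repress in many cell types: cytokines, chemokines, colony-stimulating factors, matrix-degrading proteases, adhesion molecules and a few enzymes and signalling proteins. They were chosen as a list of 33 RefSeq accessions out of 32379 identifiers on the array. Glucocorticoids such as dexamethasone (Dex) act through the glucocorticoid receptor, a hormone-activated transcription factor. At genes with a glucocorticoid response element the bound receptor raises transcription. At inflammatory genes driven by NF-kappaB and AP-1 it commonly lowers transcription by interfering with those factors, and it also induces inhibitors of the same pathways.

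The cells were COS-1, a fibroblast-like African green monkey kidney line that is widely used for expressing transfected receptors. All 4 groups were transfected with S211A, a receptor in which a serine that is phosphorylated upon hormone binding is replaced by alanine. The groups were S211A+MDFIC cells given Dex, S211A+MDFIC cells given vehicle, S211A cells given Dex and S211A cells given vehicle, with 3 biological replicates each. MDFIC is the MyoD family inhibitor domain containing protein, co-transfected with the receptor, and the comparison between the transfections asks how it alters the Dex response of this mutant. Dex was given at 100 nM for 6 h, starting 48 h after transfection with FuGENE6, in medium whose serum had been stripped of steroids with charcoal. The labels name no inflammatory stimulus, so the levels below are taken as those of transfected cells without an added stimulus. Neither untransfected cells nor cells with the unmutated receptor were among the 12 arrays. RNA was taken from whole dishes, so fewer responding cells and less RNA per cell cannot be told apart.

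RNA from these monkey cells was hybridised to arrays with human probes. Values are levels on the log2 scale relative to the 75th percentile of the array, so that 0 is the level of that percentile. A level is compared only between arrays for the same probe, since brightness differs between probes. Within groups, pairs of arrays correlated at 0.986 to 0.996 over all accessions tested. The arrays lay on 3 slides of 4. The vehicle arrays of S211A cells shared slide 1 with the first Dex replicate of these cells, and 67.8% to 71.7% of probes were well above background there, against 76.2% to 80.6% on the other slides. S211A+MDFIC Dex replicate 2 lay lowest among dim probes, with a median deviation of -0.14 from its group for the accessions dimmer than the median, while the other arrays lay between -0.09 and 0.08. Of the accessions listed for the transfected genes, NM_199072 had a level of 5.51 ± 0.45 and 5.55 ± 0.10 in S211A+MDFIC cells under Dex and vehicle, against -3.32 ± 0.09 and -3.15 ± 0.04 in S211A cells (SD, n = 3 each), while its other probe showed no such difference. NM_001018077 lay between 8.12 and 8.74 in the 4 group means.

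Of the 33 genes, 30 had a probe for the listed accession, and CSF1, PLAUR and SOD2 were not analysed here. The 23 that were tested had at least 1 group in which each of the 3 arrays read well above background. A total of 18 did so on all 12 arrays: the cytokines IL6, IL11, LIF and TNF, the chemokines CCL2, CXCL2, CXCL3 and CXCL5, the metalloproteinases MMP1, MMP3, MMP9, MMP10 and MMP13, the adhesion molecule ICAM1, the protease PLAU, and the signalling proteins IRF1, TNFAIP2 and TRAF1. The other 5 tested genes, IL1B, VCAM1, SELE, CCL5 and CSF3, entered the test through the groups in which they were detected. The 7 untested genes were CXCL8, CXCL1, CXCL6, CCL20, IL1A, CSF2 and PTGS2. CXCL8, CCL20 and PTGS2 were well above background on 0 of 12 arrays. The same held for the second probes of CXCL5 and TRAF1, whose other probes were detected on all 12 arrays. An undetected probe thus does not show that a transcript is absent.

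**Figure D1:**
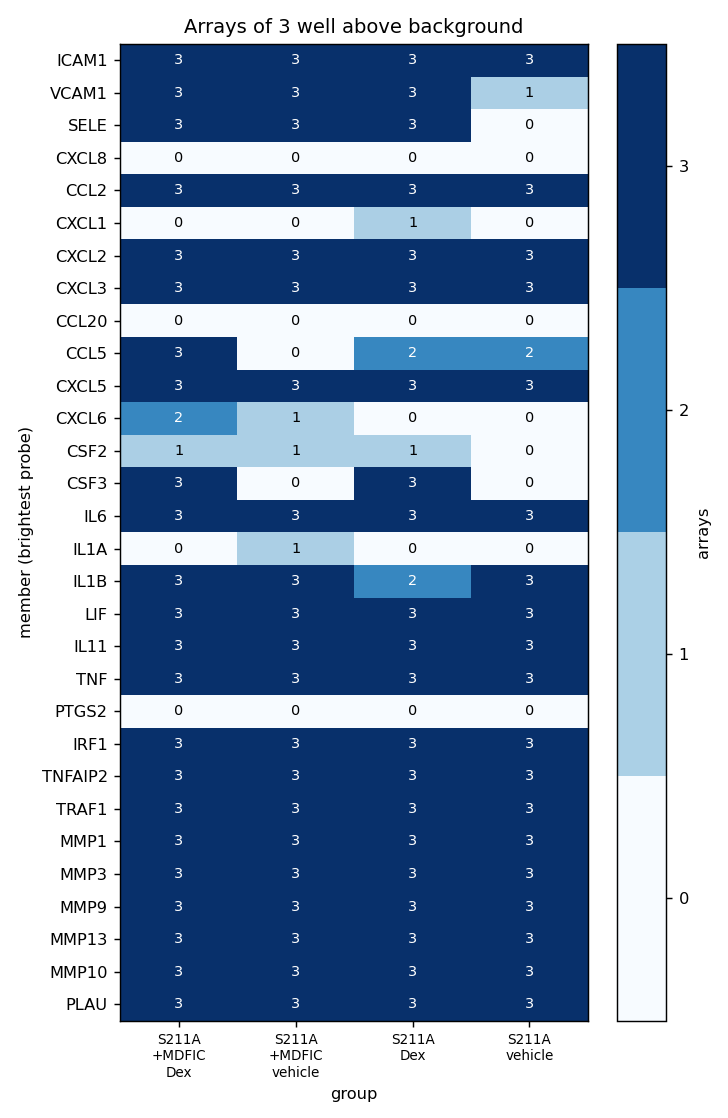
Number of arrays, out of 3 per group, on which the brightest probe of each of the 30 measured genes was well above background, with genes as rows and groups as columns. CSF3 was detected on 3 arrays of both Dex groups and on 0 arrays of both vehicle groups, and CXCL8, CCL20 and PTGS2 on none.

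Several of the cytokines and the adhesion molecule ICAM1 fell under Dex, and CSF3 was detected on Dex arrays and on no vehicle array. In S211A+MDFIC cells 8 of the 23 tested genes were called (limma, Benjamini-Hochberg adjusted p under 0.05), with CSF3 and SELE higher and IL11, ICAM1, IL6, TNFAIP2, LIF and MMP10 lower. The share of all 24586 accessions called in that comparison was 9.99%. In S211A cells 6 of the 23 were called, against 6.5% of all accessions, with CSF3 higher and IL11, ICAM1, LIF, TNFAIP2 and IL6 lower. Each of these 6 was also among the 8. CSF3 passed the detection filter through the Dex arrays alone, so its call is not independent of the filter and the set is read from the genes detected on every array. None of the 5 tested chemokines passed in either transfection.

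Among the 18 genes well above background on all 12 arrays, 6 fell and 0 rose in S211A+MDFIC cells, while 4.32% of the 20979 accessions detected on all 12 arrays fell and 6.75% rose. In S211A cells 5 of the 18 fell and 0 rose, against 2.55% and 4.31% of those accessions. The median log2 change of the 18 was -0.16 in S211A+MDFIC cells and -0.15 in S211A cells, beside 0.03 and 0.00 over all accessions detected on all 12 arrays. A total of 14 of the 18 lay below 0 in each comparison, 77.8%, beside 43.5% and 49.3% of those accessions. This lean was not particular to Dex, since 83.3% of the 18 lay below 0 in both comparisons between the transfections, where 0 genes were called. Dex and vehicle arrays did not overlap, with Dex lower, for 9 of the 18 genes in each comparison, and with Dex higher for 1 and 0. The matching shares of accessions detected on all 12 arrays were 14.5% and 13.1% with Dex lower, and 19% and 14.4% with Dex higher. Over all accessions tested, 1539 were called higher and 918 lower in S211A+MDFIC cells and 1059 and 540 in S211A cells, and with arrays centred on their median these numbers became 969 and 872, and 697 and 654.

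**Figure D2:**
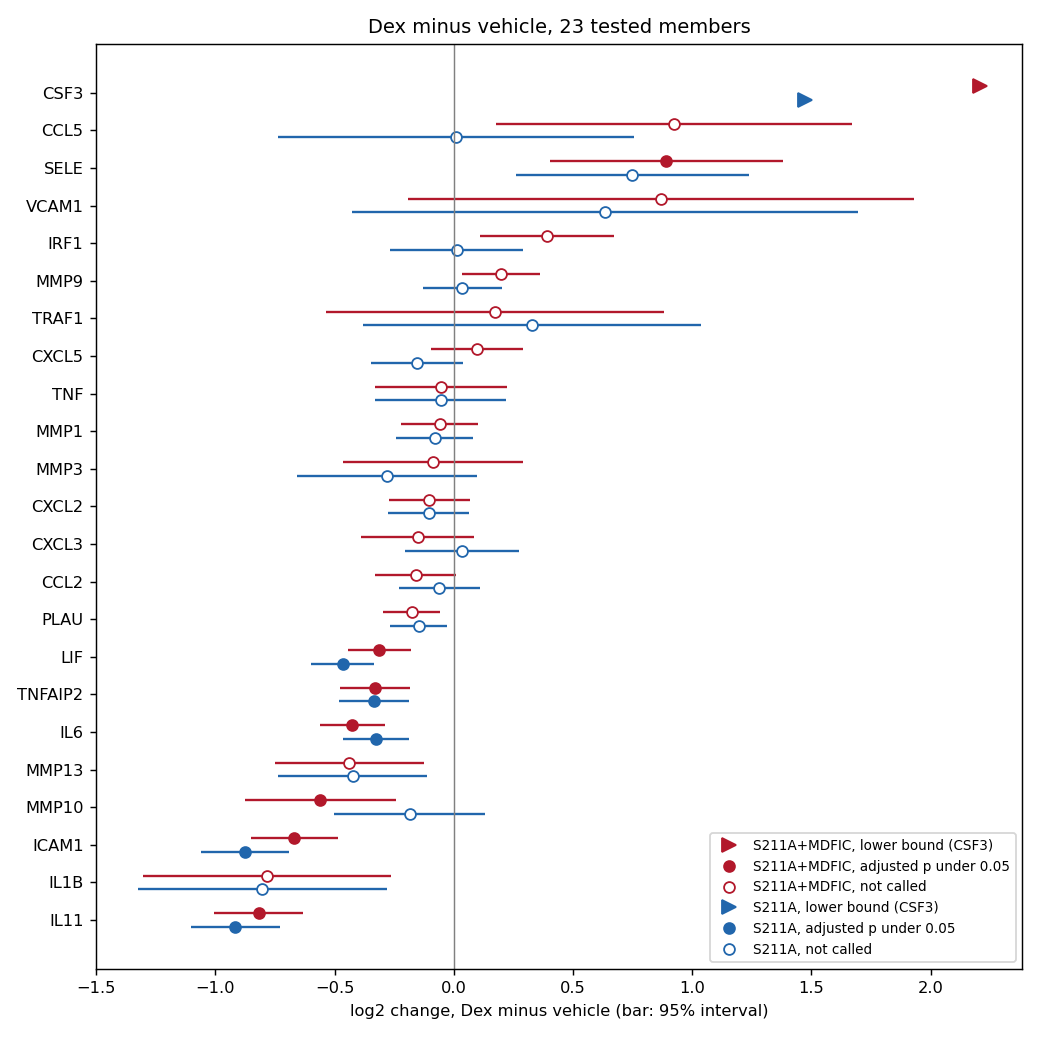
Log2 change between Dex and vehicle (horizontal axis) for the 23 tested genes, in S211A+MDFIC cells (red) and S211A cells (blue), with 95% intervals from limma, filled where the adjusted p was under 0.05. CSF3, not detected under vehicle, is drawn only as its distance from the lowest detected signal (2.21 and 1.47), marked as a lower bound though not a strict one. IL11 and ICAM1 lie among the lowest in both transfections.

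IL11 (NM_000641), a cytokine of the IL-6 family that signals through gp130, showed the largest called fall of the 23 in both transfections. Its level was -0.74, -0.94 and -0.71 on the S211A+MDFIC Dex arrays, against -0.01, -0.02 and 0.11 on the S211A+MDFIC vehicle arrays. On the S211A arrays it was -0.87, -0.67 and -0.64 under Dex, against 0.21, 0.12 and 0.24 under vehicle. Every Dex array lay below every vehicle array. IL11 under Dex stood at 56.7% of vehicle in S211A+MDFIC cells (log2 change -0.82, SE 0.08, limma adjusted p = 0.000259) and at 53% in S211A cells (log2 change -0.92, SE 0.08, limma adjusted p = 0.000136). Within slide 3, which held the 3 S211A+MDFIC Dex arrays and 1 vehicle array, the difference was -0.90, and within slide 1, which held 1 S211A Dex array and the 3 vehicle arrays, it was -1.06. The fall stayed past the threshold with slide as a fixed and as a random block in both transfections. For Dex the fixed block uses only these differences within 1 slide, with 3 arrays of 1 treatment against 1 of the other. Whether a call lost under it reflects the slide or the few arrays cannot be told apart.

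LIF (NM_002309), another cytokine of the gp130 group that acts on stem and immune cells, fell less. The S211A+MDFIC arrays gave -0.09, -0.26 and -0.12 under Dex, against 0.16, 0.14 and 0.17 under vehicle. S211A cells gave -0.08, -0.12 and -0.07 under Dex, against 0.32, 0.34 and 0.46 under vehicle. The groups did not overlap in either transfection. The log2 change was -0.31 in S211A+MDFIC cells (SE 0.06, limma adjusted p = 0.0100) and -0.47 in S211A cells (SE 0.06, limma adjusted p = 0.00121). A second LIF probe, also well above background on every array, had log2 changes of -0.12 and 0.19 that did not pass the test (limma adjusted p = 0.646 and 0.523), and with the mean of both probes the fall of LIF was not called (adjusted p = 0.190 and 0.493). With slide as a fixed block the change was -0.33 in S211A+MDFIC cells (adjusted p = 0.152) and -0.45 in S211A cells (adjusted p = 0.0497). With slide as a random block LIF was called as lower in both transfections.

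IL6 (NM_000600), the cytokine that drives the acute-phase response and a classic target of glucocorticoid repression, was measured with 10 spots per array. Levels were -3.48, -3.55 and -3.43 under Dex in S211A+MDFIC cells, against -3.05, -3.01 and -3.11 under vehicle. In S211A cells they were -3.21, -3.37 and -3.19 under Dex, against -2.98, -2.90 and -2.91 under vehicle. Again no Dex array reached a vehicle array. The level under Dex was 74.5% of vehicle in S211A+MDFIC cells (log2 change -0.43, SE 0.06, limma adjusted p = 0.00236) and 79.7% in S211A cells (log2 change -0.33, SE 0.06, limma adjusted p = 0.0118). The standard deviation among the 10 spots of an array had a median of 0.18 on the log2 scale. With slide as a fixed block the falls were -0.37 and -0.28 and were not called (adjusted p = 0.0966 and 0.212). With slide as a random block IL6 was called as lower in both transfections.

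The remaining cytokines did not pass the test. TNF (NM_000594), the founding member of its cytokine family and a strong activator of NF-kappaB, had log2 changes of -0.05 in S211A+MDFIC cells (95% interval -0.33 to 0.22) and -0.06 in S211A cells (-0.33 to 0.22). Its second probe gave -0.03 and 0.32. IL1B (NM_000576), which encodes the precursor of interleukin-1 beta, had levels of -5.48, -6.14 and -5.22 under Dex in S211A+MDFIC cells, against -4.99, -4.79 and -4.72 under vehicle. S211A cells gave -5.96, -5.29 and -5.37 under Dex, against -4.74, -4.65 and -4.83 under vehicle. All Dex arrays lay below the vehicle arrays of the same transfection, yet the changes of -0.78 and -0.80 missed the threshold (limma adjusted p = 0.0623 and 0.0796). IL1B was dim, with 80% of its spots well above background over the 12 arrays and a median standard deviation of 0.91 among the 10 spots of an array. The fall was called with quantile normalization and with median centring in both transfections. With outlier spots kept or slide as a random block it was called in S211A+MDFIC cells alone. Among other settings, it was called in neither transfection with normexp background correction, slide as a fixed block or the replicate number as a block.

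IL1A (NM_000575), the sister cytokine of IL1B, was not tested because only 1 array passed the detection rule. Of its 10 spots per array, 1, 0 and 0 were well above background under Dex in S211A+MDFIC cells, against 7, 4 and 4 under vehicle. In S211A cells the counts were 0, 0 and 0 under Dex, against 0, 0 and 1 under vehicle. Its spots were thus most often detected on the S211A+MDFIC vehicle arrays, but on none of the other 9 arrays did more than 1 spot pass.

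ICAM1 (NM_000201), the endothelial and epithelial ligand of leukocyte integrins and an NF-kappaB target, was the adhesion molecule that fell. On the S211A+MDFIC arrays its level was -3.70, -3.95 and -3.74 under Dex, against -3.10, -3.17 and -3.11 under vehicle. On the S211A arrays it was -3.95, -3.74 and -3.70 under Dex, against -2.88, -2.95 and -2.93 under vehicle. The gap between the groups exceeded 0.5 log2 units in both transfections, and no arrays overlapped. ICAM1 under Dex stood at 62.9% of vehicle in S211A+MDFIC cells (log2 change -0.67, SE 0.08, limma adjusted p = 0.000882) and at 54.5% in S211A cells (log2 change -0.88, SE 0.08, limma adjusted p = 0.000162). The differences within slides 3 and 1 were -0.69 and -1.03. Both falls stayed past the threshold with slide as a fixed block, which uses these same differences, and with slide as a random block. Normexp background correction gave smaller falls of -0.37 and -0.54, still past the threshold.

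SELE (NM_000450), the selectin that captures rolling leukocytes on activated endothelium, read higher under Dex in both transfections and was called in S211A+MDFIC cells only. Levels in S211A+MDFIC cells were -4.62, -5.11 and -4.37 under Dex, against -5.51, -5.77 and -5.50 under vehicle, with no overlap (log2 change 0.89, SE 0.22, limma adjusted p = 0.0318). In S211A cells they were -5.32, -4.81 and -4.53 under Dex, against -5.58, -5.76 and -5.58 under vehicle. These groups did not overlap either, and the fitted change of 0.75 (SE 0.22) in S211A cells was not called (limma adjusted p = 0.0807). No vehicle array of S211A cells detected SELE, so that change rests on vehicle readings not well above background. The call in S211A+MDFIC cells was lost with slide as a fixed block (0.80, adjusted p = 0.214), though not with slide as a random block. It was lost with normexp background correction (0.25, adjusted p = 0.266). It was also lost without any one of the S211A+MDFIC vehicle arrays or without S211A+MDFIC Dex replicate 1 or 3, with adjusted p between 0.0661 and 0.116.

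VCAM1 (NM_001078), the ligand of lymphocyte and monocyte integrins, was dim and variable. Its S211A+MDFIC arrays gave -3.85, -5.82 and -4.38 under Dex, against -5.78, -5.96 and -4.91 under vehicle. In S211A cells it read -5.69, -4.86 and -5.49 under Dex, against -5.88, -6.29 and -5.78 under vehicle, where 1 of the 3 arrays detected it. The arrays overlapped in S211A+MDFIC cells and not in S211A cells. The log2 differences of 0.87 and 0.63 did not pass the test and had 95% intervals of -0.19 to 1.93 and -0.43 to 1.69.

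CSF3 (NM_000759), the granulocyte colony-stimulating factor, which drives neutrophil production, was detected on all 6 Dex arrays and on 0 of the 6 vehicle arrays. Its level under Dex was -3.85, -4.57 and -4.16 in S211A+MDFIC cells and -4.39, -4.37 and -4.13 in S211A cells. Under vehicle the probe read -6.89, -7.43 and -7.85 in S211A+MDFIC cells and -6.61, -7.33 and -7.80 in S211A cells, and it was not well above background on any of these 6 arrays. The mean of CSF3 under Dex was set against the lowest signal of any probe well above background on each vehicle array. It was 4.62-fold higher in S211A+MDFIC cells and 2.78-fold higher in S211A cells. These ratios are not strict lower bounds. A probe can read above that lowest signal without being well above background, as SELE did among the S211A vehicle arrays. The adjusted p of the limma fit was 0.000245 and 0.000452. Since CSF3 entered the test through the Dex groups alone, its call is not independent of the filter, and these values support nothing further. Normexp background correction, which adds an offset of 50 to every signal, gave fitted log2 changes of 0.70 and 0.46. These are smaller than 2.21 and 1.47, the log2 values of the ratios above.

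CSF2 (NM_000758), the granulocyte-macrophage colony-stimulating factor, was well above background on 1 array each of S211A+MDFIC Dex, S211A+MDFIC vehicle and S211A Dex cells and on none of S211A vehicle cells, so no change was tested.

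**Figure D3:**
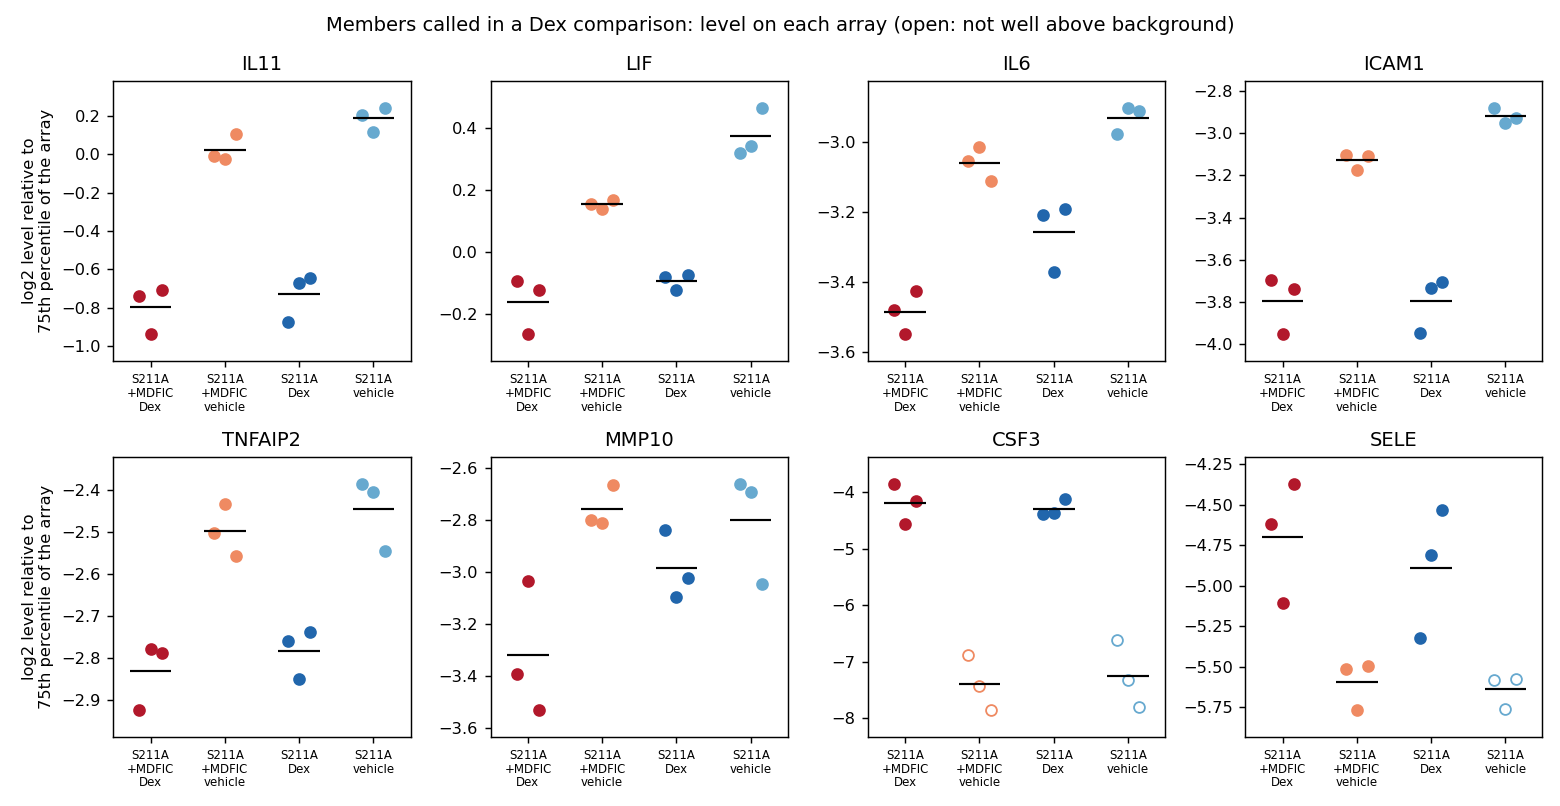
Level of each of the 8 genes called in a Dex comparison on each of the 12 arrays, as log2 relative to the 75th percentile of the array, by group, with the group mean as a line and open points where the probe was not well above background. IL11, LIF, IL6, ICAM1 and TNFAIP2 show lower Dex than vehicle arrays in both transfections without overlap, CSF3 shows the reverse, and MMP10 overlaps in S211A cells.

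The chemokines, which attract leukocytes to a site of inflammation, showed 0 called genes among the 5 tested in either transfection. CXCL5 (NM_002994), a neutrophil attractant, had levels of -0.34, -0.56 and -0.54 under Dex in S211A+MDFIC cells, against -0.63, -0.67 and -0.43 under vehicle. In S211A cells it had -0.56, -0.71 and -0.75 under Dex, against -0.53, -0.49 and -0.55 under vehicle. The arrays overlapped in S211A+MDFIC cells and not in S211A cells, and the changes of 0.10 and -0.15 did not pass the test (limma adjusted p = 0.508 and 0.375). CCL2 (NM_002982), the monocyte attractant, had log2 differences of -0.16 (95% interval -0.33 to 0.01) and -0.06 (-0.23 to 0.11), so a fall beyond 0.33 log2 units lies outside both intervals. CXCL2 (NM_002089) and CXCL3 (NM_002090), neutrophil attractants of the same family, lay between -0.15 and 0.03 on the probes used. Their second probes gave 0.43 and -0.07 for CXCL2 and -0.38 and -0.30 for CXCL3, none past the threshold. The second CXCL5 probe was detected on no array.

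CCL5 (NM_002985), which attracts T cells and is usually repressed by glucocorticoids, was dim. It read -4.81, -6.07 and -4.97 under Dex in S211A+MDFIC cells, against -6.31, -6.12 and -6.19 under vehicle, where it was not well above background on any array. In S211A cells it read -5.95, -5.21 and -4.87 under Dex, against -5.30, -5.44 and -5.31 under vehicle. The change of 0.92 in S211A+MDFIC cells did not pass the test (limma adjusted p = 0.111), and in S211A cells it was 0.01 with an interval of -0.74 to 0.75. CCL5 passed the detection filter through the S211A+MDFIC Dex arrays alone, so the 0.92 is not independent of the filter. CXCL8, CXCL1 and CCL20 were well above background on 0, 1 and 0 of the 12 arrays, and CXCL6 on 2 of S211A+MDFIC Dex and 1 of S211A+MDFIC vehicle, so the array could not show a fall of these 4 chemokines.

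Of the 5 matrix metalloproteinases, which degrade collagen and other matrix proteins and whose genes commonly depend on AP-1, MMP10 fell in S211A+MDFIC cells and 0 of 5 passed in S211A cells. MMP10 (NM_002425), stromelysin-2, had levels of -3.39, -3.04 and -3.53 under Dex in S211A+MDFIC cells, against -2.80, -2.81 and -2.67 under vehicle, with no overlap (log2 change -0.56, SE 0.14, limma adjusted p = 0.0356). The S211A arrays gave -2.84, -3.10 and -3.03 under Dex, against -2.66, -2.69 and -3.05 under vehicle, and overlapped (log2 change -0.19, limma adjusted p = 0.525). The call for MMP10 was fragile. With slide as a fixed block the change was -0.65 (adjusted p = 0.194), and with normexp background correction -0.30 (adjusted p = 0.0632). With the replicate number as a block the adjusted p was 0.0513. Slide as a random block kept the call. It was also lost without any S211A+MDFIC vehicle array, without S211A+MDFIC Dex replicate 1 or 3 and without S211A Dex replicate 3, with adjusted p between 0.0551 and 0.128.

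MMP13 (NM_002427), collagenase-3, had log2 differences of -0.44 and -0.42 that did not pass the test (limma adjusted p = 0.0762 and 0.121). Its arrays overlapped in S211A+MDFIC cells, with -4.24, -4.56 and -4.85 under Dex against -4.03, -4.01 and -4.29 under vehicle. They did not overlap in S211A cells, with -4.84, -4.79 and -4.62 under Dex against -4.34, -4.33 and -4.31 under vehicle. MMP9 (NM_004994), gelatinase B, had levels of -2.27, -2.49 and -2.18 under Dex in S211A+MDFIC cells, against -2.53, -2.48 and -2.52 under vehicle. S211A cells had -2.25, -2.16 and -2.23 under Dex, against -2.28, -2.26 and -2.21 under vehicle. Both MMP9 comparisons overlapped, with changes of 0.20 and 0.04. MMP1 (NM_002421), interstitial collagenase, had differences of -0.06 and -0.08, with intervals between -0.24 and 0.10. MMP3 (NM_002422), stromelysin-1, had differences of -0.09 and -0.28 with wide intervals that reached from -0.66 to 0.30.

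PLAU (NM_002658), urokinase, which activates plasminogen, had log2 differences of -0.18 in S211A+MDFIC cells and -0.15 in S211A cells. Its levels were 1.25, 1.26 and 1.23 under Dex in S211A+MDFIC cells, against 1.44, 1.42 and 1.40 under vehicle. In S211A cells they were 1.44, 1.26 and 1.34 under Dex, against 1.45, 1.49 and 1.54 under vehicle. The arrays did not overlap, but the changes missed the threshold (limma adjusted p = 0.0667 and 0.160). PTGS2, cyclooxygenase-2, the enzyme of prostaglandin synthesis that glucocorticoids strongly repress in stimulated cells, was at background in every group. Over the 12 arrays 1.67% of the spots of its brighter probe were well above background.

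TNFAIP2 (NM_006291), a TNF-inducible cytoplasmic protein, fell by a similar amount in both transfections. Levels were -2.92, -2.78 and -2.79 under Dex in S211A+MDFIC cells, against -2.50, -2.43 and -2.56 under vehicle. The S211A arrays gave -2.76, -2.85 and -2.74 under Dex, against -2.39, -2.40 and -2.55 under vehicle. No arrays overlapped. The level under Dex was 79.5% of vehicle in S211A+MDFIC cells (log2 change -0.33, SE 0.07, limma adjusted p = 0.0124) and 79.2% in S211A cells (log2 change -0.34, SE 0.07, limma adjusted p = 0.0142). With slide as a fixed block the changes were -0.27 and -0.31 and were not called (adjusted p = 0.258 and 0.195). With slide as a random block TNFAIP2 was called as lower in both transfections. The call was also lost in S211A+MDFIC cells without vehicle replicate 2 (adjusted p = 0.0580), and in S211A cells without vehicle replicate 1 or 2 or Dex replicate 2 (adjusted p between 0.0580 and 0.0603).

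IRF1 (NM_002198), a transcription factor induced by interferon and TNF, read -1.89, -2.05 and -1.55 under Dex in S211A+MDFIC cells, against -2.13, -2.13 and -2.39 under vehicle. In S211A cells it read -2.03, -2.13 and -1.98 under Dex, against -2.15, -2.08 and -1.95 under vehicle. The Dex arrays lay above the vehicle arrays in S211A+MDFIC cells, with a change of 0.39 that missed the threshold (limma adjusted p = 0.0787), while the S211A change was 0.01. TRAF1 (NM_005658), an adaptor of TNF receptors, had differences of 0.17 and 0.33 with intervals from -0.54 to 1.04. Its vehicle arrays in S211A cells alone spanned -2.97 to -1.78. A second TRAF1 probe was detected on no array.

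Leaving out single arrays moved the number of genes called for Dex. In S211A+MDFIC cells it ranged from 5 without S211A+MDFIC vehicle replicate 2, when CSF3, ICAM1, LIF, IL6 and IL11 passed, to 12 without S211A+MDFIC Dex replicate 2, when MMP9, IRF1, CCL5 and VCAM1 passed as higher as well. Calls over all accessions moved too, to 5.04% without the first array and 18.6% without the second, against 9.99% with all arrays. In S211A cells the number ranged from 5 to 8. With slide as a fixed block 3 genes passed in S211A+MDFIC cells (CSF3, ICAM1 and IL11) and 4 in S211A cells (the same 3 and LIF), while 2.43% and 2.69% of all accessions did. With slide as a random block 9 and 6 genes passed, while 11.9% and 7.31% of all accessions did. These were the genes called without a block, with IL1B added in S211A+MDFIC cells. CSF3 is counted among the genes in each of these fits, though it passed the filter through the Dex arrays alone. CCL5 passed it through the S211A+MDFIC Dex arrays alone, so its call as higher is not independent of the filter either. ICAM1 and IL11 passed without each array in turn in both comparisons.

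**Figure D4:**
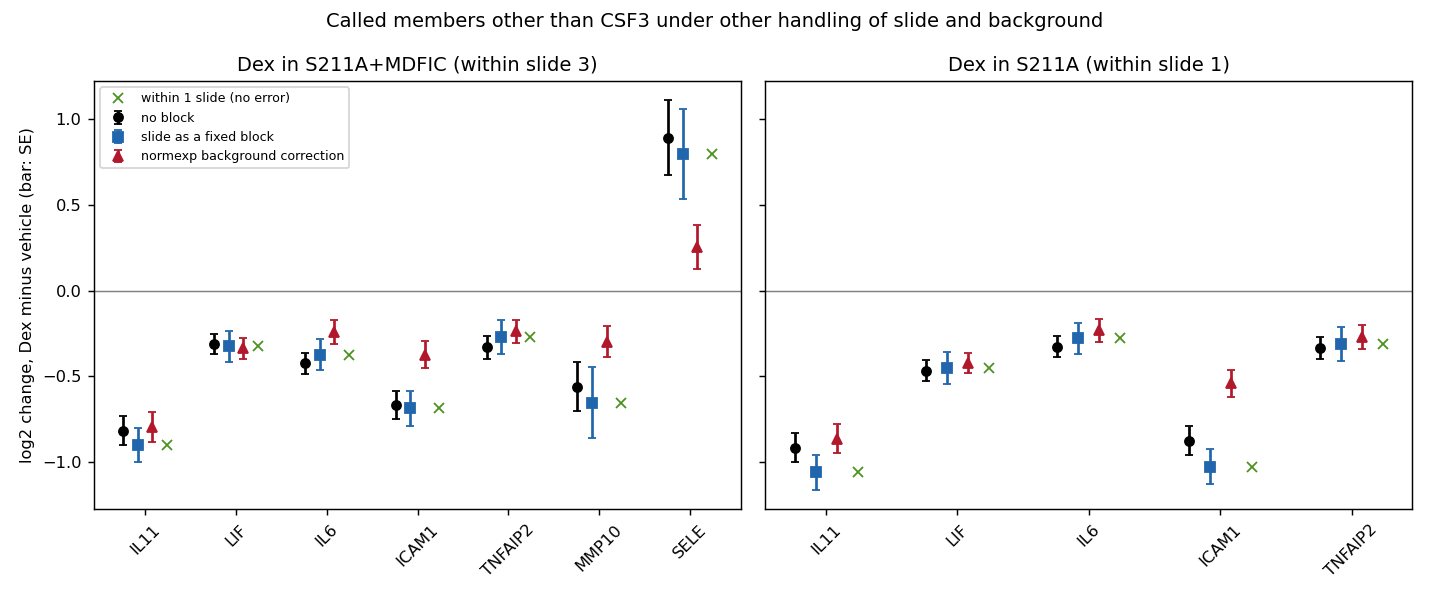
Log2 change between Dex and vehicle (vertical axis, bars are standard errors) for the called genes other than CSF3 in S211A+MDFIC cells (left) and S211A cells (right), fitted without a block, with slide as a fixed block and with normexp background correction, beside the difference within the 1 slide that held both treatments, which has no error. The fixed-block value is that within-slide difference by design, so they are not separate checks. The direction is the same under each handling shown, and ICAM1 shrinks to -0.37 and -0.54 with normexp.

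The difference between the Dex responses, S211A+MDFIC minus S211A, was called for 0 of the 23 genes, against 0.268% of all accessions (limma, 0 of 23 also at an unadjusted p under 0.05, which 9.85% of all accessions passed). A call in 1 transfection and not in the other, as for SELE and MMP10, was thus not shown to be a difference between them. For IL11 the difference was 0.10 log2 units with a 95% interval of -0.16 to 0.36, and for ICAM1 0.21 with -0.05 to 0.47, so IL11 and ICAM1 responses that differ by more than 0.5 lie outside these intervals. LIF differed by 0.15 (-0.03 to 0.34), IL6 by -0.10 (-0.29 to 0.10) and TNFAIP2 by 0.00 (-0.20 to 0.21). The intervals were wide for SELE (-0.55 to 0.83) and MMP10 (-0.82 to 0.07). IRF1 had a difference of 0.38 (-0.02 to 0.78) and CCL5 one of 0.91 (-0.14 to 1.97). The value for CCL5 is not independent of the filter, which it passed through the S211A+MDFIC Dex arrays alone.

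MDFIC itself was set against S211A alone under each treatment, and 0 of the 23 genes were called under Dex (0.427% of all accessions) or under vehicle (0.948%). At an unadjusted p under 0.05 limma gave 4 genes under Dex, IL6, CCL2, MMP10 and CXCL5, and 4 under vehicle, LIF, MMP9, ICAM1 and CCL5. Those counts are 17.4% of the 23 genes each, near the 13.5% and 16.5% of all accessions at the same threshold. Under Dex, IL6 arrays of S211A+MDFIC cells lay below those of S211A cells, with a difference of -0.23 (95% interval -0.37 to -0.09, limma adjusted p = 0.176). CCL2 differed by -0.18 under Dex (limma adjusted p = 0.347), with levels of -1.22, -1.33 and -1.40 in S211A+MDFIC cells, against -1.01, -1.21 and -1.18 in S211A cells.

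Under vehicle, S211A+MDFIC cells had lower readings than S211A cells for LIF, by -0.22 (limma adjusted p = 0.116), MMP9, by -0.26 (limma adjusted p = 0.131), and ICAM1, by -0.21 (limma adjusted p = 0.246). The arrays of these 3 genes did not overlap. CCL5 differed by -0.85 under vehicle (limma adjusted p = 0.240) and was detected on 0 arrays of S211A+MDFIC cells and 2 arrays of S211A cells. No slide held both vehicle groups, nor both Dex groups, so a difference between the transfections has no value within a slide. With slide as a fixed block 0 of 23 genes were called in each of these comparisons. Over all accessions 0.305% were called under vehicle and 0.0488% under Dex. That fit links the transfections only through comparisons that also differ in Dex, so this count cannot serve as a check.

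Of the 18 genes detected on all 12 arrays, 0 lay higher and 2 lower without overlap under Dex, against 6.94% and 8.69% of accessions detected on all 12 arrays. Under vehicle 1 lay higher and 8 lower, against 12.3% and 18.4%. Of the 18, 15 had a difference below 0 under Dex and 15 under vehicle, 83.3% each, beside 50.4% and 56.5% of those accessions. The median differences of the 18 were -0.07 and -0.08. All S211A vehicle arrays were on slide 1 and all S211A+MDFIC vehicle arrays on slides 2 and 3, and the part of slide in these counts was not tested.

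**Figure D5:**
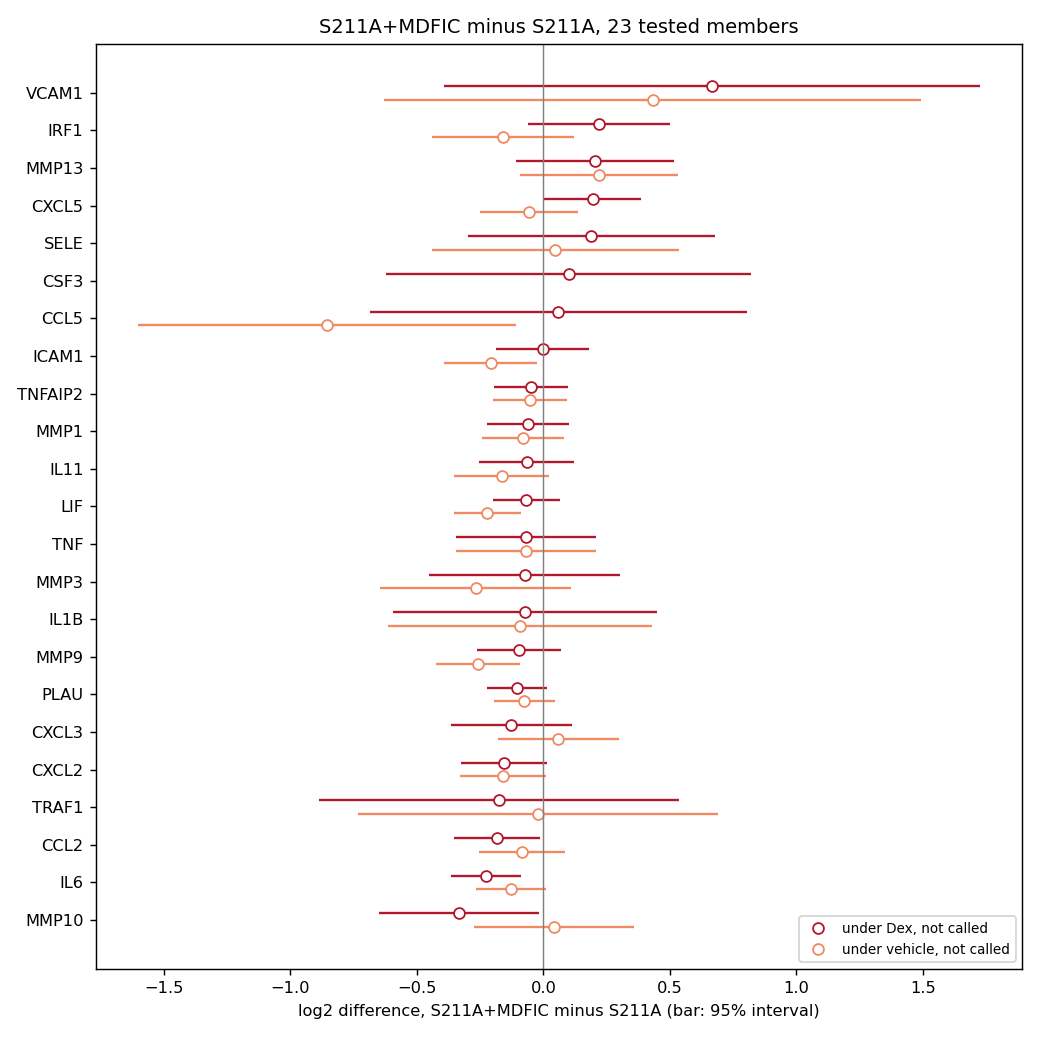
Log2 difference between S211A+MDFIC and S211A cells (horizontal axis) for the 23 tested genes under Dex (red) and under vehicle (orange), with 95% intervals from limma. No point is filled, since 0 genes had an adjusted p under 0.05, and CSF3 under vehicle, detected in neither group, is not drawn.

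Other genes of the same pathways were counted by lists of accessions, without naming them. Among 12 tested accessions listed as receptors of inflammatory signals, not all of them for these cytokines, 2 rose and 0 fell under Dex in S211A+MDFIC cells. In S211A cells 3 rose and 0 fell. Of 12 listed as inhibitors of inflammatory signalling, 4 rose and 1 fell in S211A+MDFIC cells and 5 rose and 1 fell in S211A cells, with changes between -0.85 and 1.47 on the log2 scale. The median change of these inhibitors was 0.18 and 0.21, beside 0.05 and 0.02 over all accessions tested. Of 11 on the path from receptors to NF-kappaB, 1 rose and 0 fell in S211A+MDFIC cells, and 1 rose and 1 fell in S211A cells. Of 4 protease inhibitors 1 fell in each comparison. Over all accessions tested, 9.99% were called for Dex in S211A+MDFIC cells and 6.5% in S211A cells, with 3.73% and 2.2% called lower. Counts of 1 or 2 in lists this short are not read as results about the lists. Of these lists, 1 accession of the path to NF-kappaB was lower in S211A+MDFIC cells than in S211A cells under vehicle, and none was called under Dex. Under vehicle 0.948% of all accessions were called.

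Of the accessions listed as cell type markers, all 5 epithelial and 5 of 6 mesenchymal accessions were well above background on all 12 arrays, as were 4 of 5 leukocyte and 2 of 4 endothelial accessions. In the leukocyte and mesenchymal lists 1 accession each was well above background on no array. The summed signal of the leukocyte list was 73.6% to 88.5% of the 75th percentile of an array under Dex in S211A+MDFIC cells and 79.3% to 87.7% under vehicle. It was 67.1% to 80.3% under Dex in S211A cells and 79.8% to 90.4% under vehicle. The mesenchymal list summed to 20373% to 22579% under Dex and 19723% to 21364% under vehicle in S211A+MDFIC cells, and its range in S211A cells was 20717% to 21947% under Dex and 21635% to 22119% under vehicle. Under Dex, 2 mesenchymal and 1 endothelial accessions rose in S211A+MDFIC cells, and 1 mesenchymal, 1 endothelial and 1 epithelial accession rose in S211A cells, while 0 fell and 0 leukocyte accessions were called. None was called in the MDFIC comparisons. Over all accessions tested, 9.99% were called for Dex in S211A+MDFIC cells and 6.5% in S211A cells. Whether these lists bear on the changes above was not tested.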

How the data were processed

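The authors deposited linear Cy3 intensity values of 45015 spots for each array. The file headers give Feature Extraction 12.0.0.7 as the software, and the submitters' processing notes give version 12. Per the file headers, the processed signal is already corrected for background. The other deposited flags mark spots per the file headers as well above background, saturated or outliers. No spot was saturated. The authors' table of the whole series holds the same intensity without scaling between arrays.

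The processed signal was taken to log2 and each array's 75th percentile was subtracted. The 1639 control spots were left out, 945 outlier spots were set to missing, and spots of a probe were averaged. A probe was detected on an array when over 0.5 of its spots were well above background, and was tested when detected on all 3 arrays of at least 1 group, with at least 2 values per group. The brightest probe stood for an accession, which gave 24586 accessions. Contrasts between 4 group means were fitted to all 12 arrays in limma 3.58.1 (R 4.3.3), with Benjamini-Hochberg adjustment within each of the 5 comparisons, two-sided. The fit was tested on simulated data. Figures were drawn with matplotlib 3.10.9. Precision is limited by the number of arrays.

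The genes and the lists were chosen with earlier results of these data known. Gene symbols of the 33 come with the list. Accessions of the other lists were written from general knowledge of RefSeq and are counted without names, since the files used here pair no accession with a symbol. Values on every array are given for each gene called in at least 1 comparison and for the brightest probe of each role group with a tested gene. The other genes are given by values or range, and some were given in full after their values were seen. Alternatives were background correction, scaling, filter, outlier spots, probe choice, variance model, samples in the fit, slide and replicate number as blocks, and leaving out each array. No sequences were printed.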

Additional observations from a re-analysis of the deposited data

How the results depend on the processing

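The counts of genes called for Dex ranged from 3 to 7 in S211A cells (6 as reported) and from 3 to 10 in S211A+MDFIC cells (8 as reported) over 14 alternatives, leaving single arrays out apart. In S211A+MDFIC cells the count was 4 with normexp, 3 with the series-wide table without scaling, 4 with only the compared groups in the fit and 3 with slide as a fixed block. Calls over all accessions were 7.94%, 2.11%, 5.08% and 2.43% there, against 9.99%. In S211A cells the count was 3 with the series-wide table, when 2.06% of all accessions were called, against 6.5%. Without single arrays it ranged from 5 to 8 in S211A cells and from 5 to 12 in S211A+MDFIC cells. CSF3 is in these counts wherever it was tested, though its call is not independent of the filter. ICAM1 and IL11 were called under every alternative run, and no called change turned its direction. With every probe on its own, the direction was read only from the probe of the main fit. The second LIF probe had a change of 0.19 in S211A cells, not called, against -0.47 for the probe used. IL6 was not called in 3 and TNFAIP2 in 4 of 14 alternatives in S211A+MDFIC cells, and each in 4 of 14 in S211A cells. LIF was not called in 4 of 14 in S211A+MDFIC cells and 2 of 14 in S211A cells. MMP10 was not called in 7 of 14 and SELE in 5 of 13. For MDFIC under vehicle 1 gene, CCL5, was called as lower when only the compared groups were fitted, and the count ranged from 0 to 1 without single arrays, with MMP9 lower without S211A+MDFIC Dex replicate 2. The count was 0 in each setting run for MDFIC under Dex, and likewise for the difference between the responses. The cause of these shifts was not tested.

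The series-wide table without scaling moved the median of all accessions to 0.12 in both MDFIC comparisons, and the median of the tested genes to 0.05 under Dex, against -0.07 with scaling, and to 0.05 under vehicle, against -0.08. Whether the replicate numbers pair the arrays cannot be decided from the deviations of same-numbered arrays, since each group mean rests on few arrays. Pairing was not shown, as not every correlation of same-numbered arrays exceeded 0.1. These were 0.11, 0.15 and -0.01 for Dex in S211A, 0.05, 0.03 and 0.00 for Dex in S211A+MDFIC, -0.26, -0.18 and 0.18 for MDFIC under Dex, and -0.01, 0.25 and 0.07 for MDFIC under vehicle. With the replicate block 6 genes were called for Dex in S211A, 7 for Dex in S211A+MDFIC, and 0 in the other comparisons. Dim probes limit what can be seen: 7 genes with a probe were not tested, and 5 were tested without detection on all 12 arrays.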
